A study of Homo sapiens with 6 samples.

Results

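The 8 loci described here are 5 abundant structured noncoding RNAs, RN7SL1, RN7SL2, RN7SK, RMRP and RPPH1, and 3 mRNAs, HEXIM1, LARP7 and MEPCE, whose proteins bind 7SK RNA. They were chosen by name, as the loci that carry these gene symbols, and are 8 of the 62828 loci measured. K562 is an established human cell line from a chronic myelogenous leukemia, and its cells were transfected either with siRNA against HNRNPU (300 nM) or with control oligos. Each condition was sampled as whole-cell, nuclear and cytosolic RNA, which gave 6 groups of 1 library: HNRNPU knockdown whole-cell, knockdown nuclear, knockdown cytosolic, control whole-cell, control nuclear and control cytosolic. All libraries share the line, TRIzol extraction, depletion of ribosomal RNA and strand-specific preparation for the HiSeq X-10 instrument. HNRNPU is a nuclear protein that binds RNA and chromatin, and the series asks, by its title, whether it sets the nuclear localization of long noncoding RNAs. Each group holds a single library, so no difference below has a replicate check and no test was made.

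7SL RNA, made from RN7SL1 and RN7SL2, is the scaffold of the signal recognition particle, which binds ribosomes that make secreted and membrane proteins and docks them at the endoplasmic reticulum. 7SK RNA holds the kinase P-TEFb, made of CDK9 and a cyclin T, in an inactive particle: HEXIM1 inhibits the kinase when bound to 7SK, LARP7 binds the 3′ end of the RNA and MEPCE methylates its 5′ end. RMRP is the RNA of RNase MRP, which acts in ribosomal RNA processing, and RPPH1 is the RNA of RNase P, which removes the 5′ leader of tRNA precursors. RNA polymerase III transcribes all of these RNAs, and they carry no poly(A) tail of the mRNA kind.

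Sequence sets what short fragments can tell apart, and the sequences below are from GENCODE release 29. The 7SL copies are 98.3% identical, with 295 matching bases, 4 mismatches and 1 gap. Fragments of 1 copy can match the other, so the split of the 7SL signal between the loci is uncertain, and their sum is the firmer value. In 7SK, capitals mark the motif GATC, searched in the RNA strand only. HEXIM1 is known to bind paired motifs of this kind in the 5′ hairpin of 7SK.

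RN7SK, bases 1 to 120: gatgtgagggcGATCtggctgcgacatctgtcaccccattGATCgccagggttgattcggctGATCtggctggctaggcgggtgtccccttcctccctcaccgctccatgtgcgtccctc

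The motif occurs 3 times in the 328 bases of 7SK, from bases 12, 41 and 63, and nowhere in the rest of the RNA. RMRP and RPPH1 belong to related enzymes that share most of their proteins. Capitals mark the longest run that the 2 RNAs have in common.

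RMRP: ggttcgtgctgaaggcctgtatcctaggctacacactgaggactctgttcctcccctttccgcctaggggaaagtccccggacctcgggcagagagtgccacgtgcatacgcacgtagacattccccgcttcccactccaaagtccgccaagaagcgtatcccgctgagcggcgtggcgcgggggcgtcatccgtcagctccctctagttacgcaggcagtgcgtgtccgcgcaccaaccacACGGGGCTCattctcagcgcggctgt

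RPPH1, bases 100 to 200: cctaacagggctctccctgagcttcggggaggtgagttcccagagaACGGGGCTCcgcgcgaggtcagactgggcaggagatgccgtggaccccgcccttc

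The shared run has 9 bases and begins at base 243 of RMRP and base 146 of RPPH1. Over a global alignment the 2 RNAs were 52.4% identical, so their fragments can be told apart, unlike those of the 7SL pair.

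On hg19 coordinates, RN7SL1 lies at chr14:50053297-50053596, inside the larger merged locus of the ribosomal protein gene RPS29, and RN7SL2 at chr14:50329271-50329567. RN7SK lies at chr6:52860418-52860748 and RMRP at chr9:35657748-35658015. The RPPH1 locus, chr14:20811207-20811844, is 638 bases wide, wider than the 333 bases of the RNA, and overlaps PARP2 by 104 bases. The deposited locus therefore holds more than the RNA itself. HEXIM1 lies at chr17:43224684-43229468, LARP7 at chr4:113558120-113578748 and MEPCE at chr7:100026413-100031741. The RPS29 locus around RN7SL1 had 527 to 1844 FPKM and PARP2 6.97 to 9.0 FPKM in the 6 libraries. The sources used here do not say whether counting used the strand, so overlapping loci could have received fragments of their neighbours.

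The labels were checked first. The merged HNRNPU locus had 55.3 FPKM in knockdown against 129 FPKM in control whole-cell RNA, 63.7 against 163 FPKM for nuclear RNA and 34.9 against 158 FPKM for cytosolic RNA, or 43.0%, 39.0% and 22.1% of the control. The nuclear RNA MALAT1 had a nuclear over cytosolic ratio of 22.2 in knockdown cells and 14.1 in control cells, and GAS5, a transcript that is abundant in the cytosol, had 0.307 in knockdown and 0.281 in control cells. All 8 markers of the K562 line had values above 0, with GATA1 at 26.2 to 55.9 FPKM and TAL1 at 24.8 to 45.4 FPKM, while MS4A1 of B cells was listed at 0 and MPO of granulocytes did not exceed 0.0246 FPKM. CD3E of T cells had 0.915 to 2.12 FPKM and LYZ of myeloid cells 1.61 to 3.48 FPKM. The FPKM sums over all loci were 670627 against 666927 for knockdown against control whole-cell RNA, 767744 against 802344 for nuclear RNA and 1811621 against 1781861 for cytosolic RNA. The cytosolic sums are far above the others, so a nuclear over cytosolic ratio depends on the scaling of the libraries and is read here against the median of all loci.

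RN7SL1 had the highest FPKM of all loci, and both 7SL copies were most abundant in cytosolic RNA. FPKM is the number of fragments per kilobase of transcript, scaled to library size. RN7SL1 had 125760 FPKM in knockdown and 134987 FPKM in control whole-cell RNA. Nuclear RNA of knockdown cells held 165320 FPKM against 179699 FPKM in control cells. Cytosolic RNA held 495689 FPKM against 474379 FPKM. It was the locus with the highest FPKM in each of the 6 libraries, with 18.8% of the library sum in knockdown against 20.2% in control whole-cell RNA, 21.5% against 22.4% for nuclear RNA and 27.4% against 26.6% for cytosolic RNA.

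RN7SL2 had 77174.5 FPKM in knockdown and 76798 FPKM in control whole-cell RNA. Knockdown nuclear RNA held 97083.3 FPKM against 106046 FPKM in the control, and knockdown cytosolic RNA 260509 FPKM against 248499 FPKM. The ratio of RN7SL1 to RN7SL2 lay between 1.63 and 1.91 in all 6 libraries. Summed over both copies, 7SL had 202934.5 FPKM in knockdown against 211785 FPKM in control whole-cell RNA, 262403 against 285745 FPKM for nuclear RNA and 756198 against 722878 FPKM for cytosolic RNA. Both copies stood in the same order of preparations, highest in cytosolic RNA and lowest in whole-cell RNA, in knockdown and in control cells.

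By FPKM, 7SK was 1 of the 3 most abundant loci in whole-cell and cytosolic RNA. RN7SK had 85348.4 FPKM in knockdown and 87419.1 FPKM in control whole-cell RNA. It had 54252.8 FPKM in knockdown nuclear RNA against 76011.8 FPKM in control nuclear RNA, and 276397 FPKM in knockdown cytosolic RNA against 260255 FPKM in control cytosolic RNA. The nuclear pair is the widest apart, with the knockdown library lower, while the whole-cell and cytosolic pairs lie close together. As a share of the library sum, RN7SK held 7.07% in knockdown nuclear RNA and 9.47% in control nuclear RNA.

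RMRP had the order of preparations opposite to that of 7SK, with most in the nucleus. Its level was 58545.9 FPKM in knockdown and 62832.6 FPKM in control nuclear RNA. In whole-cell RNA it was 26035 FPKM in knockdown and 27373.8 FPKM in control cells. The cytosolic pair was the widest apart, with 14485.7 FPKM in knockdown against 21821.2 FPKM in control cells.

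By FPKM, RPPH1 stood lowest among the 5 RNAs in whole-cell and nuclear RNA and was the most unequal between the fractions. It had 39808.2 FPKM in knockdown and 45107.7 FPKM in control cytosolic RNA, against 1242.94 FPKM in knockdown and 1429.43 FPKM in control nuclear RNA. Whole-cell RNA lay between, with 6803.63 FPKM in knockdown and 6931.64 FPKM in control cells. The RNA components of RNase MRP and RNase P, enzymes that share proteins, thus stood at opposite ends of the nuclear to cytosolic scale among the 5 RNAs.

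**Figure D1:**
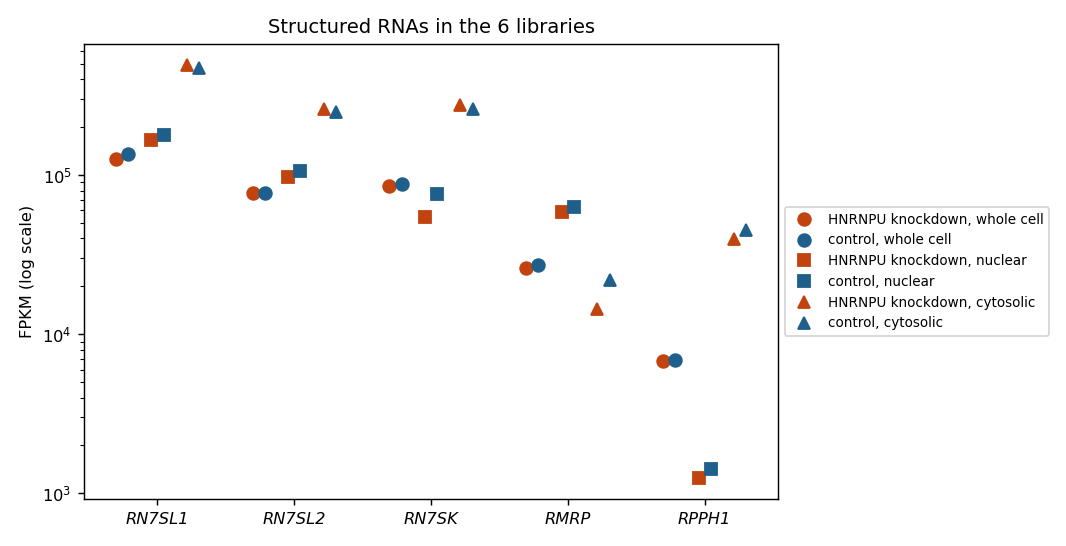
FPKM of the 5 structured RNAs on a log axis, 1 point per library, with HNRNPU knockdown left of control in each pair and preparations told apart by symbol. RMRP is the RNA whose nuclear points lie above its cytosolic points, and the widest pairs are RN7SK in nuclear RNA (54252.8 against 76011.8 FPKM) and RMRP in cytosolic RNA (14485.7 against 21821.2 FPKM).

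Together the 5 RNAs held about as much of the FPKM sum as all other loci combined in whole-cell and nuclear RNA, and more in cytosolic RNA. Their share was 47.9% in knockdown against 50.0% in control whole-cell RNA, 49.0% against 53.1% for nuclear RNA and 60.0% against 58.9% for cytosolic RNA. Loci of the mitochondrial genome held 6.39% against 6.41%, 8.61% against 6.56%, and 1.16% against 1.39% for the same pairs. The higher mitochondrial share in knockdown nuclear RNA moved with the lower share of the structured RNAs there, and its part in that difference was not tested.

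These shares are not shares of molecules. In low values, whole fragments leave steps, from which the FPKM given to 1 fragment can be read. Of 553 low values at loci within 15 bases of 300, 85.0% were whole multiples of 1 step within 0.02 fragments. At a width of 300 bases 1 fragment was worth 0.803 FPKM in knockdown against 0.664 FPKM in control whole-cell RNA. The pair was 0.371 against 0.802 FPKM for nuclear RNA and 0.997 against 1.08 FPKM for cytosolic RNA. A smaller step means more fragments behind each FPKM, so the knockdown nuclear library has the most.

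The weight of 1 fragment climbed steeply as loci became shorter. It was 11.2 to 12.2 times the weight at 1000 bases in the 6 libraries, where length alone would give 3.33 times. The FPKM of RNAs of about 300 bases are therefore raised relative to longer transcripts. The factor was not the same in every library: it was 11.3 in knockdown against 12.2 in control nuclear RNA at the width of RN7SL1, and 19.1 against 21.1 at that of RMRP. The weight also differs among the structured RNAs, at 1.38 FPKM for 268 bases (RMRP) and 0.542 FPKM for 333 bases (RPPH1) in knockdown whole-cell RNA. Ranks, shares and ratios between RNAs are by FPKM and include this weight.

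**Figure D2:**
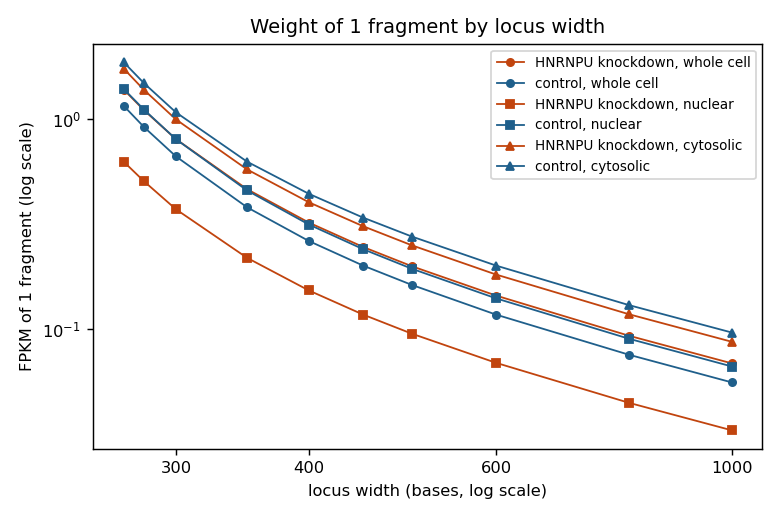
FPKM given to 1 fragment against locus width in bases, both axes log, 1 line per library. All 6 lines climb toward short loci with nearly the same shape, and the line of knockdown nuclear RNA lies lowest (0.371 FPKM at 300 bases).

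By these steps the values of the 5 RNAs rest on many fragments. RN7SL1 was supported by an estimated 156658 to 497179 fragments in a library, RN7SK by 138676 to 402219, RMRP by 8329 to 93567 and RPPH1 by 2666 to 61462, the last taken at the length of the RNA. HEXIM1, LARP7 and MEPCE rested on 533 to 1413, 246 to 630 and 519 to 1537 fragments. Intervals below are 95% intervals from these fragments. They cover counting error only, and PCR copies are not independent molecules.

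Of the loci, 7419 are narrower than 140 bases, and 0 of them had a value above 0 in any library. Of 28 other small structured RNA loci looked up by name, 16 were listed at 0, all 79 to 141 bases wide. They include the Y RNAs RNY1, RNY3, RNY4 and RNY5, the vault RNAs, and the spliceosomal RNAs RNU4-1, RNU4-2, RNU5A-1, RNU6-1 and RNU11. Spliceosomal RNAs are used by every cell, so a value of 0 at these widths is not a measured absence. The members, at 268 bases and more, lie above that limit.

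In whole-cell RNA the structured RNAs were nearly equal between knockdown and control cells. Ratios are given as log2 of knockdown over control after adding 0.1 FPKM to each value, and a size of 1, which is 2-fold, served as the rule of size. None of the 8 members reached it in whole-cell RNA, where 2.66% of the 12824 loci that averaged 1 FPKM or more did. RN7SL1 had a log2 ratio of -0.10, RN7SL2 0.01, a value whose sign turned under 4 of 8 other settings, RN7SK -0.03, RMRP -0.07 and RPPH1 -0.03. The median of the 5 was -0.03, beside 0.06 over all loci. All 5 lay below the median of all loci, and 40.6% of all loci had a ratio lower than that of RN7SL2, the highest of the 5.

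In nuclear RNA 7SK stood lower after knockdown. None of the 8 members was 2-fold different there (2.54% of all loci were). All 5 structured RNAs had ratios below 0, of which the 7SL copies are not separate observations. The highest of these ratios was that of RMRP, and 31.6% of all loci had a lower one. RN7SK had a log2 ratio of -0.49, which is 0.714 times the control level, with a counting interval of -0.50 to -0.48. In bulk RNA, fewer cells or nuclei that hold an RNA and less of it in each cannot be told apart. The ratios of RN7SL1, RN7SL2, RMRP and RPPH1 were nearer to 0, at -0.12, -0.13, -0.10 and -0.20, and the median over all loci was 0.03. The weight of 1 fragment at these widths, relative to that at 1000 bases, was also lower in the knockdown than in the control nuclear library. That difference was -0.10 on the log2 scale for both 7SL loci, -0.14 for RMRP, -0.07 for RN7SK and -0.06 for RPPH1. It is about as large as the ratios of the 7SL loci, larger than that of RMRP and smaller than those of RN7SK and RPPH1, and its part in them was not tested. Of all loci 6.76% had a lower nuclear ratio than RN7SK. Among the 477 loci that averaged 100 FPKM or more, which counting error touches less, 4.61% had a ratio of at least that size in either direction.

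Ratios within a library do not depend on its scaling. In nuclear RNA there were 3.05 RN7SL1 per RN7SK by FPKM in knockdown cells, against 2.36 in control cells. In whole-cell RNA the same ratio was 1.47 in knockdown and 1.54 in control cells, and in cytosolic RNA 1.79 and 1.82. The lower 7SK level relative to RN7SL1 was thus found in 1 of the 3 preparations. Against RN7SL2 alone, 7SK was slightly lower in whole-cell RNA too, with knockdown ratios of 0.01 for RN7SL2 and -0.03 for RN7SK. The split between the 7SL copies is uncertain, so this whole-cell difference is not firm. Summed over both copies, 7SL had 202934.5 FPKM in knockdown against 211785 FPKM in control whole-cell RNA. RN7SK had 85348.4 against 87419.1 FPKM there. The knockdown nuclear library also has the most fragments per FPKM and the highest mitochondrial share, and the part of either in the nuclear value was not tested.

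In cytosolic RNA the RNA that stood apart was RMRP. None of the 8 members was 2-fold different, beside 5.25% of all loci. RMRP had a log2 ratio of -0.59, which is 0.664 times the control level, with a counting interval of -0.63 to -0.55. RN7SL1, RN7SL2 and RN7SK were slightly higher in knockdown cells, at 0.06, 0.07 and 0.09, and RPPH1 was lower at -0.18. The median over all loci was 0.03. At the width of RMRP the relative weight of 1 fragment was 0.04 higher in knockdown than in control cytosolic RNA on the log2 scale. That weight was read from 6 of 20 loci in knockdown and 7 of 18 in control cytosolic RNA. Its part in the RMRP ratio was not tested. Of the 477 loci that averaged 100 FPKM or more, 2.31% had a ratio as large as that of RMRP. By FPKM there were 34.2 RN7SL1 per RMRP in knockdown cytosolic RNA against 21.7 in control cytosolic RNA, while in nuclear RNA there were 2.82 and 2.86.

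**Figure D3:**
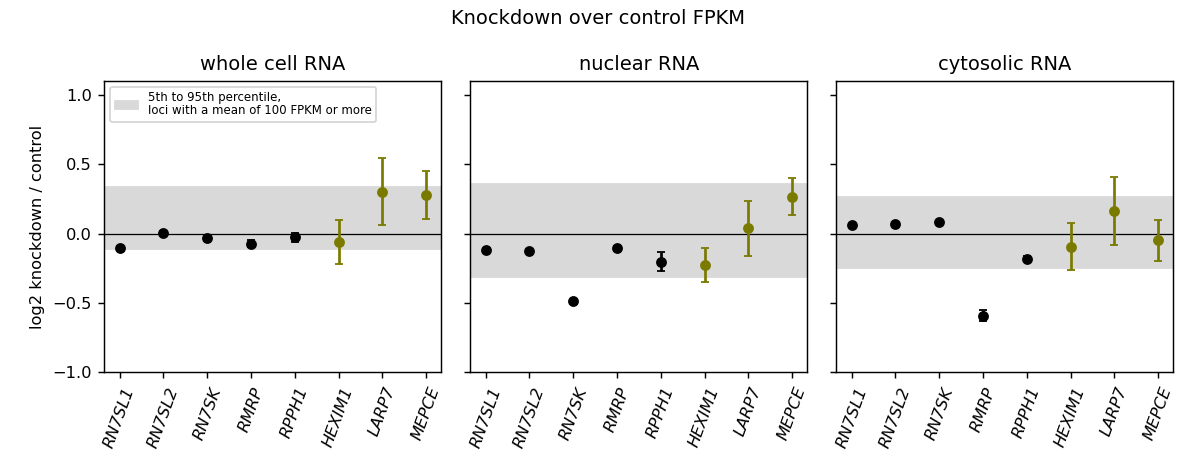
Log2 of knockdown over control FPKM for the 8 members in whole-cell, nuclear and cytosolic RNA, with bars for the 95% counting interval and a grey band from the 5th to the 95th percentile of the 477 loci that averaged 100 FPKM or more. RN7SK lies below the band in nuclear RNA (-0.49) and RMRP in cytosolic RNA (-0.59).

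The fractions separated RMRP from the other structured RNAs in both conditions. The log2 ratio of nuclear over cytosolic FPKM was 2.01 in knockdown and 1.53 in control cells for RMRP. It was -1.58 and -1.40 for RN7SL1, -1.42 and -1.23 for RN7SL2, -2.35 and -1.78 for RN7SK, and -5.00 and -4.98 for RPPH1. The median over all loci was -0.47 in knockdown and -0.44 in control cells, so the first lies above it and the other 4 below it.

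By the rule of size, 4 of the 5 RNAs were lower in nuclear than in cytosolic RNA in both conditions, beside 28.4% of all loci in knockdown and 29.1% in control cells. RMRP was higher by that rule, beside 14.4% and 16.0%. In either direction the background was 42.8% and 45.0%. RPPH1 is near the end of the whole distribution: 0.0780% of all loci in knockdown cells and 0.101% in control cells had a lower ratio. Its nuclear level was 0.0312 times its cytosolic level in knockdown and 0.0317 times in control cells. RNase P is known as an enzyme of the nucleus, so the order of the fractions for RPPH1 goes against the usual place of its RNA. 7SK too is known as a nuclear RNA, and it had 0.196 times its cytosolic level in nuclear RNA of knockdown cells and 0.292 times in control cells. The sources used here do not describe the fractionation.

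The scaling sets the size of these fraction ratios. With libraries brought to equal sums over all loci, a setting chosen after seeing the data, the ratio for RN7SL1 was -0.35 in knockdown and -0.25 in control cells, and the median of all loci was 0.74 and 0.67. The 4 RNAs then still lie below the median and RMRP above it, but the 7SL loci are no longer 2-fold lower in the nucleus. For RN7SK the ratio was then -1.11 in knockdown cells, still past 2-fold, and -0.62 in control cells, no longer past it. Whole-cell RNA was also set beside the fractions. A mixture of 2 fractions should lie between them, but only where the 3 libraries share a scale. The whole-cell FPKM sums, 670627 in knockdown and 666927 in control cells, were below those of both fractions. The deposited values therefore cannot serve as a check of the fractions. In these values RN7SK, RMRP and RPPH1 lay between the fractions in both conditions. RN7SL1, RN7SL2 and the 3 partner mRNAs lay below both fractions, a place that depends on the scaling. Over all loci 39.4% lay between the fractions in knockdown and 39.0% in control cells, and 48.4% and 49.9% lay below both.

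**Figure D4:**
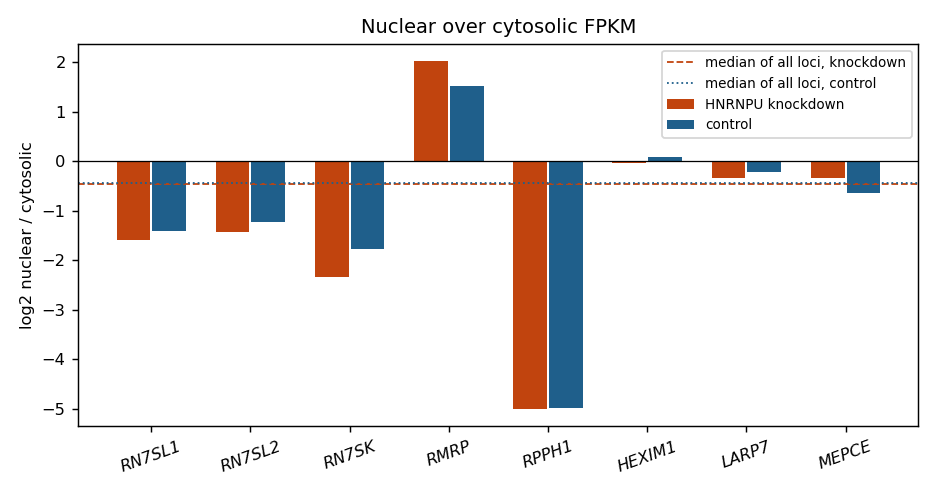
Log2 of nuclear over cytosolic FPKM for the 8 members as bars from 0, HNRNPU knockdown left of control, with the median of all 12824 loci as a dashed line for knockdown and a dotted line for control. RMRP is the structured RNA above 0 (2.01 and 1.53), RPPH1 lies lowest (-5.00 and -4.98), and the widest pairs are RN7SK and RMRP.

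The localization shift is the nuclear over cytosolic log2 ratio in knockdown cells minus that in control cells, and a value below 0 is toward the cytosol. None of the 8 members shifted by 2-fold, beside 7.1% of all loci. RN7SK had a shift of -0.57 (counting interval -0.59 to -0.56) and RMRP a shift of 0.49 (0.45 to 0.53). The shift of RN7SL1 was -0.18 and that of RN7SL2 -0.20. RPPH1 had a shift of -0.02 with a counting interval of -0.09 to 0.05, and its sign turned under 2 of 8 other settings. The median over all loci was 0.000577. Among the 477 loci that averaged 100 FPKM or more, 5.66% had a shift as large as that of RN7SK and 6.71% one as large as that of RMRP. So the largest shifts among the structured RNAs ran in opposite directions. The shift of RN7SK came mostly from its nuclear libraries and that of RMRP mostly from its cytosolic libraries.

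The mRNAs of the 7SK partners stood near their control levels. HEXIM1, the inhibitor of P-TEFb, had 8.58 FPKM in knockdown and 8.96 FPKM in control whole-cell RNA, 10.5 against 12.3 FPKM for nuclear RNA and 10.9 against 11.6 FPKM for cytosolic RNA. It was lower in knockdown in each preparation, with log2 ratios of -0.06, -0.23 and -0.09. The counting intervals were -0.22 to 0.10, -0.35 to -0.10 and -0.26 to 0.08, so the nuclear difference is the one outside counting error.

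LARP7, which binds and protects the 3′ end of 7SK, had 6.88 and 5.55 FPKM, 7.53 and 7.34 FPKM, and 9.62 and 8.58 FPKM in whole-cell, nuclear and cytosolic RNA of knockdown and control cells. It was higher in knockdown in each preparation, with log2 ratios of 0.30, 0.04 and 0.16. The whole-cell interval was 0.06 to 0.54, and the other intervals, -0.16 to 0.23 and -0.08 to 0.41, include 0. The higher LARP7 mRNA thus rests on 1 preparation. Even there the lower end of its interval, 0.0620, lies below the median over all loci, 0.0636.

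MEPCE, the methyltransferase that caps 7SK, had 9.71 FPKM in knockdown and 7.99 FPKM in control whole-cell RNA. The pair was 13.8 against 11.4 FPKM for nuclear RNA and 17.4 against 18.0 FPKM for cytosolic RNA. The log2 ratios were 0.28, 0.27 and -0.05, with counting intervals of 0.10 to 0.45, 0.13 to 0.40 and -0.20 to 0.10. MEPCE was higher in whole-cell and nuclear RNA, and 19.5% and 17.8% of all loci had a higher ratio there.

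In knockdown and control cells the nuclear over cytosolic log2 ratios of the partners were -0.05 and 0.09 for HEXIM1, -0.35 and -0.22 for LARP7, and -0.33 and -0.65 for MEPCE. All 3 mRNAs lay within 0.53 of the median of all loci, in contrast to the structured RNAs. Their shifts were -0.13, -0.13 and 0.32. Of these 6 fraction ratios, 5 changed sign under at least 1 other scaling, while that of HEXIM1 in control cells did not. None reached 2-fold in the deposited values.

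**Figure D5:**
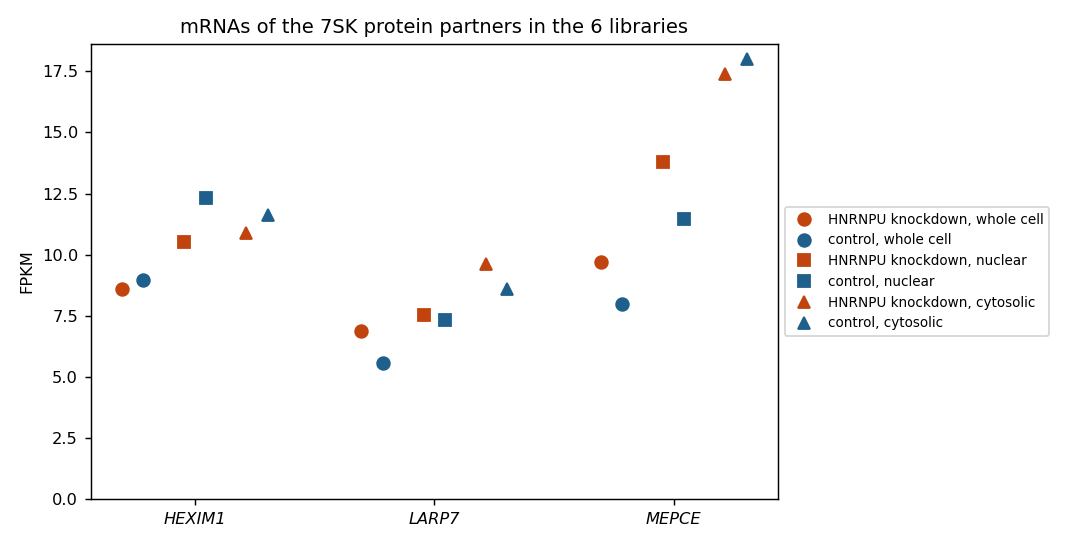
FPKM of the mRNAs HEXIM1, LARP7 and MEPCE on a linear axis from 0, 1 point per library, HNRNPU knockdown left of control in each pair. HEXIM1 lies between 8.58 and 12.3 FPKM, LARP7 between 5.55 and 9.62 FPKM and MEPCE between 7.99 and 18.0 FPKM, with the MEPCE knockdown point higher in whole-cell and nuclear RNA.

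Among 18 genes of the 7SK and P-TEFb circuit, 17 averaged 1 FPKM or more, and none differed by 2-fold in a knockdown ratio or a shift. Over all loci 2.66%, 2.54% and 5.25% did in whole-cell, nuclear and cytosolic RNA and 7.1% in the shift. A list of this length would thus hold few such loci or none. Median ratios of the 17 were 0.10, 0.11 and -0.05 for whole-cell, nuclear and cytosolic RNA, beside 0.06, 0.03 and 0.03 over all loci. CCNT1, a cyclin of P-TEFb, had 13.4 against 10.8 FPKM in whole-cell RNA of knockdown against control cells (log2 ratio 0.31). MLLT1, a subunit of the super elongation complex that P-TEFb joins, had 17.8 against 14.0 FPKM there (0.35). Other genes of the list went the other way in whole-cell RNA. Named as examples of these, CCNT2 had -0.12, the merged CDK9 locus -0.02 and AFF4 -0.21, the lowest of the list.

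The protein genes of the signal recognition particle and its receptor gave 8 loci, and none was 2-fold different in a knockdown ratio or a shift. The shares of all loci were 2.66%, 2.54% and 5.25% for whole-cell, nuclear and cytosolic ratios and 7.1% for the shift. SRPR, the receptor subunit that docks the particle at the endoplasmic reticulum, was lower in knockdown in all 3 preparations, with log2 ratios of -0.26, -0.37 and -0.66 for whole-cell, nuclear and cytosolic RNA. Its cytosolic level was 13.2 FPKM in knockdown against 20.9 FPKM in control cells. SRP54, the GTPase of the particle, had ratios of -0.21, 0.18 and 0.39, and SRP72, a protein of the 7SL-bound core, 0.26, 0.06 and -0.11. The merged locus that holds SRP19, which assists assembly of the particle, had -0.23, 0.43 and 0.29. The medians of the list were -0.04, 0.13 and 0.01. Its nuclear median compares with -0.12 and -0.13 for the 7SL loci.

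The 11 proteins of RNase P and RNase MRP likewise held no locus with a 2-fold knockdown ratio or shift. Over all loci the shares were 2.66%, 2.54% and 5.25% in whole-cell, nuclear and cytosolic RNA and 7.1% in the shift. RPP30, a subunit of both enzymes, was higher in knockdown in each preparation, with log2 ratios of 0.52, 0.86 and 0.25. Its nuclear level was 8.74 FPKM in knockdown against 4.76 FPKM in control cells, and its shift 0.62. POP5, another shared subunit, had a shift of 0.49 and a cytosolic ratio of -0.37. RPP25L, a paralog of the subunit RPP25, had a shift of -0.45, and the merged locus of RPP21 a whole-cell ratio of -0.42. The medians of the list were -0.05, 0.03 and -0.01 in whole-cell, nuclear and cytosolic RNA.

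The machinery that makes these RNAs was examined in the same way. Of 13 RNA polymerase III subunits and 19 of its factors, none was 2-fold different in any knockdown ratio or shift. The background over all loci was 2.66%, 2.54% and 5.25% in whole-cell, nuclear and cytosolic RNA and 7.1% in the shift. Lists this short would thus hold few such loci or none. The medians of the subunits were 0.08, -0.04 and -0.05 and those of the factors 0.12, 0.02 and 0.17 in whole-cell, nuclear and cytosolic RNA. Among the subunits, POLR3C had a log2 ratio of 0.40 in nuclear RNA, POLR3G 0.27 in cytosolic RNA and the merged locus of CRCP a shift of -0.51.

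ZNF143, a zinc finger activator of small RNA genes, had a shift of -0.84, with ratios of 0.65 in whole-cell and -0.54 in nuclear RNA. GTF3C3, a subunit of TFIIIC, had a whole-cell ratio of 0.57. SNAPC3, a subunit of the complex that binds promoters of the 7SK type, had a shift of 0.53, and TBP, the TATA-binding protein, a nuclear ratio of 0.48.

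The 9 genes of 3′ end handling include SSB, which encodes the La protein that binds the ends of new RNA polymerase III transcripts. SSB was higher in knockdown in all 3 preparations, with 78.6 against 61.5 FPKM, 96.6 against 76.9 FPKM and 152 against 114 FPKM for whole-cell, nuclear and cytosolic RNA. The log2 ratios were 0.35, 0.33 and 0.42. PARN, a deadenylase that trims small RNAs, had a whole-cell ratio of 0.44, DIS3, a nuclease of the exosome, a shift of 0.45, and DIS3L2, a nuclease of uridylated RNA, a cytosolic ratio of 0.34. None of the list was 2-fold different in a knockdown ratio or shift, and its median ratios were 0.08, 0.12 and 0.10. Of all loci 2.66%, 2.54% and 5.25% were past 2-fold in the 3 preparations and 7.1% in the shift.

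Of the 28 other small structured RNA loci, 11 were kept. Of these 11, the loci past 2-fold numbered 1, 1 and 0 for whole-cell, nuclear and cytosolic RNA, beside 2.66%, 2.54% and 5.25% of all loci, and 2 by the shift, beside 7.1%. RN7SL3, a 7SL copy that is 97.7% identical to RN7SL1, was lower in knockdown in all 3 preparations, with log2 ratios of -0.28, -0.69 and -0.30. RN7SL4P and RN7SL5P, at means of 16540 and 16541 FPKM, had nuclear ratios of 0.14 and -0.05. Their identities to RN7SL1 were 85.7% and 85.0%, and whether they received its fragments was not checked. The ratios of the 7SL copies differed in sign. With the 5 named 7SL loci summed, a setting chosen after seeing the data, the knockdown ratios were -0.04, -0.11 and 0.06 and the shift -0.17.

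RNU1-1, a locus of the U1 spliceosomal RNA, had 98.5 FPKM in knockdown against 247 FPKM in control nuclear RNA, a log2 ratio of -1.33 and a shift of -1.28. That locus is 164 bases wide, close to the 140 bases under which no locus had a value above 0. The weight of 1 fragment was read at widths from 268 bases up, so how many fragments RNU1-1 rests on is not known. SNORD3A, the U3 RNA of ribosomal RNA processing, had a shift of 1.05, with 65.5 against 50.9 FPKM in nuclear and 7.78 against 12.6 FPKM in cytosolic RNA. The merged locus of RNU2-2P and WDR74 had a shift of 0.70. RNU12, named for being the locus past 2-fold in whole-cell RNA, had 0.122 FPKM there in knockdown against 1.59 FPKM in control cells. Its locus is 664 bases wide and averaged 1.19 FPKM. In knockdown whole-cell RNA 1 fragment was worth 0.144 FPKM at 600 bases and 0.0926 FPKM at 800 bases, so its knockdown value is near that of 1 fragment.

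TERC and SCARNA2, box H/ACA and Cajal body RNAs, were picked after their values were seen, as further RNAs with more FPKM in nuclear than in cytosolic RNA. TERC, the RNA of telomerase, had nuclear levels of 604 FPKM in knockdown and 699 FPKM in control cells, and cytosolic levels of 221 and 347 FPKM. Its cytosolic log2 ratio was -0.65 and its shift 0.45, close to the -0.59 and 0.49 of RMRP. SCARNA2, at nuclear levels of 1201 FPKM in knockdown and 1363 FPKM in control cells and cytosolic levels of 39.4 and 37.3 FPKM, had a cytosolic ratio of 0.08 and a shift of -0.26. Other kept loci of the small RNA list also had more nuclear than cytosolic FPKM in both conditions. Of these, SNORD3A had a cytosolic ratio of -0.68 and the merged RNU2-2P locus -0.39. RNU12, at a mean of 1.19 FPKM, had 0.39, and the merged SNORD118 locus, named to complete this set, had 0.34. A lower cytosolic level after knockdown was thus found for some of these RNAs and not for others.

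Named copies and pseudogenes of 7SL and 7SK make up 1137 loci, of which 927 were listed at 0 and 48 were kept. The RN7SL1 and RN7SL2 loci held 89.9% to 93.2% of the FPKM of the 7SL family in the 6 libraries, and RN7SK 99.9% of that of the 7SK family. Among the 48 kept copies, 17 were at least 2-fold lower and 4 at least 2-fold higher in the shift, beside 3.83% and 3.28% of all loci. These shares are not like for like. At 300 bases 1 fragment was worth 0.371 to 1.08 FPKM, so a copy of that width could be kept on few fragments. At 1000 bases it was worth 0.0327 to 0.0958 FPKM. The nuclear step at 300 bases, 0.371 FPKM in knockdown against 0.802 FPKM in control cells, also differed, and its part in the shifts was not tested. Most copies past 2-fold have few FPKM: at a minimum mean of 5 FPKM, 2 of the list were past 2-fold in either direction. Examples at that level are the merged loci of CLK4 with RN7SKP70 (shift -1.09) and of GOLGA2B with RN7SL176P (-1.36), where host gene and copy cannot be told apart. RN7SKP255, a locus of its own, had a shift of -0.57.

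The profile of each member over the 6 libraries, as log2 values centred on their mean, was set against the 8492 loci that averaged 5 FPKM or more. The distance used is the root mean square of the log2 differences. The locus nearest to RN7SL1 was MRPS26 at 0.0821, followed by RN7SL2 at 0.0856 and CA2 at 0.0912. Those nearest to RN7SL2 were the merged locus of the metallothionein gene MT1X at 0.0547 and the histone genes HIST1H3B at 0.0612 and H2AFZ at 0.0679. SURF2 was nearest to RN7SK at 0.0633, with 5.73 against 7.14 FPKM in knockdown against control nuclear RNA. The merged BOLA2 locus and FAM195B followed at 0.0843 and 0.0898.

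RMRP and RPPH1 had few loci like them. RMRP had 3 within 0.2, SCN9A at 0.171, IGSF8 at 0.199 and MKI67 just under the limit. RPPH1 had none within 0.2, and its nearest were the ferritin genes FTH1 at 0.487 and FTL at 0.494, followed by an unnamed locus at 0.564. FTL had cytosolic levels of 10468 FPKM in knockdown and 11814 FPKM in control cells, and nuclear levels of 783 and 802 FPKM. The partner mRNAs lay in dense company: HEXIM1 was nearest to CDC25C, CDC45 and CYB561A3 (0.0485 to 0.0518), LARP7 to ARID1B and the merged loci of PIGQ and KIF21A (0.0418 to 0.0423), and MEPCE to QRICH1, IARS2 and RRP1B (0.0375 to 0.0440).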

How the data were processed

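RNA of K562 cells was sequenced in 6 libraries, 1 per group. The authors deposited FPKM per locus, 1 column per library; no header names the unit, which was read from values and tools. Per the submitters' processing notes the tools were FastQC, CASAVA, Cuffdiff 2.2.1 and TopHat2 2.0.13; mm9 and hg19 are listed as builds without roles. The sources used here do not give annotation, strand setting or library scaling. Whether preparations of a condition share a culture is not stated.

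From these values log2(FPKM + 0.1) ratios were computed over 12824 loci that averaged 1 FPKM or more, without 14 sex-linked loci, in Python 3.11.15 with numpy 2.4.6, pandas 2.3.3, Biopython 1.88 and matplotlib 3.10.9. Ratios understate changes of low loci. File starts count from 0, so 1 was added. The FPKM of 1 fragment was read from steps of low values, with 235 bases taken off the length of long loci; the steps were tested on simulated data. With 1 library per group no test was made. Alternatives were other pseudocounts, filters and scalings.

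Named loci are the 8 members, up to 4 loci per list with the largest knockdown ratio or shift among loci that averaged 5 FPKM or more, the 3 loci nearest in profile, loci that overlap a member, and loci that check the labels. Some that the rule picks are not reported here. The members and lists were chosen with earlier results of these data known.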

Additional observations from a re-analysis of the deposited data

Results flagged for a closer look

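For 4 members the knockdown ratios in nuclear and cytosolic RNA had opposite signs, which is what marked them. RN7SK was lower in nuclear (-0.49) and higher in cytosolic RNA (0.09), a shift of -0.57. RN7SL1 (-0.12 and 0.06) had a shift of -0.18 and RN7SL2 (-0.13 and 0.07) a shift of -0.20. MEPCE was higher in nuclear (0.27) and lower in cytosolic RNA (-0.05), a shift of 0.32. These differences were not tested, since each group holds 1 library, and the cytosolic ratio of MEPCE lies within its counting error. The cytosolic ratios of the 3 RNAs lie outside theirs but are small beside the spread of other loci: 54.3% to 65.6% of the 477 loci that averaged 100 FPKM or more had one as large.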

How the results depend on the processing

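No paired analysis was possible because the groups share fewer than 2 replicate numbers. A fit of condition over the 3 preparations was not run, since the labels do not say whether they come from separate cultures. No result changed from a 2-fold call to the opposite sign. RN7SK in nuclear RNA stayed between -0.53 and -0.42 and its shift between -0.60 and -0.49 in 8 alternatives. RMRP in cytosolic RNA stayed between -0.63 and -0.59 and its shift between 0.46 and 0.58. The RN7SL2 whole-cell ratio changed sign in 4 alternatives, the RPPH1 shift in 2 and the LARP7 nuclear ratio in 1.

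Scaling moved the fraction ratios most. In the order equal median, equal sum without mitochondrial and small RNAs, upper quartile, and equal sum over all loci (chosen after seeing the data), the median of the 5 RNAs was -1.14, -0.45, -0.91 and -0.35 in knockdown and -0.99, -0.24, -0.72 and -0.25 in control cells. That of the 3 partners was 0.11, 0.79, 0.33 and 0.90 in knockdown and 0.18, 0.92, 0.44 and 0.91 in control cells, with the sign turned. The median whole-cell knockdown ratio of the 5 RNAs was -0.089, -0.10 and -0.11 under the first 3 scalings, and their median shift -0.10 under equal sums over all loci.

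Without mitochondrial loci the 5 RNAs held 51.2% of knockdown and 53.4% of control whole-cell FPKM, 53.7% and 56.8% of knockdown and control nuclear FPKM, and 60.7% and 59.8% of knockdown and control cytosolic FPKM. Over the loci kept they held 48.2% and 50.4% of knockdown and control whole-cell FPKM and 49.4% and 53.4% of knockdown and control nuclear FPKM.

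Of the copies of 7SL and 7SK, 48 were tested, 210 with no filter and 17 at a minimum mean of 5 FPKM. In whole-cell RNA 14 were past 2-fold (2.66% of all loci), and 8 when the pseudocount was 1 (1.1%), 111 with no filter (13.1%) and 1 at the higher minimum (0.624%). In nuclear RNA they numbered 14 (2.54%), and in the same order 7 (1.07%), 102 (11.9%) and 0 (0.683%). In cytosolic RNA they numbered 12 (5.25%), and 29 with no filter (12.0%) and 0 at the higher minimum (0.813%). In the shift they numbered 21 (7.1%), and 13 (2.49%), 116 (20.5%) and 2 (1.38%). Of the 11 other small RNAs 1 passed in whole-cell RNA and 0 of 10 at the higher minimum, and 2 in the shift but 1 with a pseudocount of 1. Short copies can be kept on few fragments, so their counts and the shares of all loci are not like for like. The causes were not tested.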
